A study of Mus musculus with 4 samples.

Results

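The Frizzled receptor genes Fzd1 to Fzd10 encode the 10 mouse Frizzled proteins, and all 10 were taken as members by name, whatever their values, out of 21938 protein-coding genes. H3K27me3, the trimethylation of lysine 27 of histone H3 that Polycomb repressive complex 2 places through Ezh2, was profiled around them by CUT&RUN, in which an antibody guides a nuclease that releases the bound chromatin for sequencing. The cells were sorted from the yolk sac (YS) of C57BL/6 mouse embryos at E10.5 as erythro-myeloid progenitors (EMPs), which the study defines as KIT+CD41+CD16/32+ and uses as wild type, while the genotype label of all libraries reads Ezh2fl/fl; Tie2-Cre+/+ beside the words wild type. Tie2-Cre acts in endothelium and the cells derived from it. 1 H3K27me3 library was made from 500 EMPs and 1 from 15000 EMPs, each with 1 IgG library as background for the peak caller, and the number of YS behind each was not given in the sources used here.

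With 1 library per cell number there were no replicates, so no difference below has a replicate check and none was tested. The lists held 10223 peaks for 500 EMPs and 15282 for 15000 EMPs. In the files used here each peak was a position without height, score or read count, so depth was unknown from them, and a gene was read as carrying a peak or not. Cell number cannot be told apart from the instrument, the read length, the PCR cycles, the depth and the caller's p-value threshold, which was 0.01 for 500 EMPs and 0.05 for 15000 EMPs. None of 9 EMP genes (Kit, Itga2b, Fcgr3, Fcgr2b, Csf1r, Runx1, Spi1, Myb and Tal1) had a peak in either library. For 0 of 9 the 95% Wilson interval ran from 0 to 29.9%. That range takes in the rates over the whole gene set, 9.73% for 500 EMPs and 16.7% for 15000 EMPs. The empty list therefore does not set the EMP genes apart from other genes. Of the 5 endothelial markers Cdh5, Pecam1, Kdr, Tek and Emcn, Kdr alone had a peak and with 15000 EMPs alone, and of the 5 yolk sac endoderm markers Afp, Ttr, Apoa1, Hnf4a and Foxa2, Foxa2 had a peak in both libraries. A missing peak is not a measure of expression, and these counts do not establish cell identity.

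Frizzled proteins are receptors that cross the membrane several times and bind Wnt ligands through a cysteine-rich domain outside the cell. With the coreceptors Lrp5 or Lrp6 they stabilise beta-catenin, and with other partners they act on cell polarity and movement. By sequence the family falls into Fzd1, Fzd2 and Fzd7, into Fzd5 and Fzd8, into Fzd4, Fzd9 and Fzd10, and into Fzd3 and Fzd6. H3K27me3 is a repressive mark that in vertebrates often lies over developmental genes with CpG islands, stretches rich in the dinucleotide CG.

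The DNA at several members is shown first, because members differed in where their peaks lay relative to the gene start. All stretches read 5′ to 3′ on the strand of the gene, on GRCm38 (mm10), with every CpG in capitals. For Fzd10, 300 bases just before the annotated start (chr5:128600544-128600843, plus strand), which no peak covered, stand beside the last 300 bases of the peak that ended upstream of them with 15000 EMPs (chr5:128600030-128600329).
Fzd10, before the start: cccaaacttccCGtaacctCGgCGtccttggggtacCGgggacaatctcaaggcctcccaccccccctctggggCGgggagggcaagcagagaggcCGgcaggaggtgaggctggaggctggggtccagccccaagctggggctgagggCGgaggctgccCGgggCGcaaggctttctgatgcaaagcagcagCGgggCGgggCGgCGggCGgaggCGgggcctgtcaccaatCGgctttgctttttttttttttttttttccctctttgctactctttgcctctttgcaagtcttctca
Fzd10, upstream peak: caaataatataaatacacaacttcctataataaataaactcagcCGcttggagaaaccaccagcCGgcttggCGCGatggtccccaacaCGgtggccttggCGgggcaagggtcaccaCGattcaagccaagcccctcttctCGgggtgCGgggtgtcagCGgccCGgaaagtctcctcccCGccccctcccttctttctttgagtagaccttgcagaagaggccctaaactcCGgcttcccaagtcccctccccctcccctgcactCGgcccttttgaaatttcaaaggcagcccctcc
The first held 16 CpG and the second 14. For Fzd2, the middle 300 bases of a coding exon peak found with 500 EMPs (chr11:102605433-102605732, plus strand) lay inside a peak of both libraries and held 20 CpG.
Fzd2, coding exon: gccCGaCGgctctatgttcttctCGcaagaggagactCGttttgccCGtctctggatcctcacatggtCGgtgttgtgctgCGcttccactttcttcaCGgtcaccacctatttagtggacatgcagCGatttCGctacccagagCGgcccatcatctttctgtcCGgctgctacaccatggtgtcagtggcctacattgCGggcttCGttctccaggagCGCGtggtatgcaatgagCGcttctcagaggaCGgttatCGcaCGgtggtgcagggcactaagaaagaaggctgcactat

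Stretches before the start of Fzd1 (chr5:4758217-4758466, minus strand) and Fzd9 (chr5:135251231-135251297, minus strand) stand for members with a peak. In the Fzd1 stretch the first 72 bases belonged to a peak with 15000 EMPs and the rest to none, and the Fzd9 stretch lay outside every peak. They come from the RefSeq promoter table (GRCm38.p6), cut to the bases before both the RefSeq and the GENCODE start and outside exons of protein-coding genes.
Fzd1: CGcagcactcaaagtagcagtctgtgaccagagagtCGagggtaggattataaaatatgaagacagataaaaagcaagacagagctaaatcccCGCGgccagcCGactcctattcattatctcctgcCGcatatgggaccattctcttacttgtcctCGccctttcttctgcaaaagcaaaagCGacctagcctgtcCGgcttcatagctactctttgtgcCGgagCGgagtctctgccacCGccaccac
Fzd9: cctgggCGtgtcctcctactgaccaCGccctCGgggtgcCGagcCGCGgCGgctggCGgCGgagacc
The same stretches of Fzd4 (chr7:89404223-89404354, plus strand, all 132 bp between it and the divergent gene Tmem135), Fzd5 (chr1:64737752-64738000, minus strand) and Fzd7 (chr1:59481897-59482146, plus strand) stand for members without a peak in either library.
Fzd4: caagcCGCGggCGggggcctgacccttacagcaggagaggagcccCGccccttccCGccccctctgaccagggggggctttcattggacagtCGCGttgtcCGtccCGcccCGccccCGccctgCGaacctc
Fzd5: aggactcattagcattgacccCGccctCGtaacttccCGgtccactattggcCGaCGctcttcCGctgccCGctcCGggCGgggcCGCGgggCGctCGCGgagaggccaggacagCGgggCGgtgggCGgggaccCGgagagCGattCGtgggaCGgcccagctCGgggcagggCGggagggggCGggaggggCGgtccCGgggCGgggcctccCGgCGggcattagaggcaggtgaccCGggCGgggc
Fzd7: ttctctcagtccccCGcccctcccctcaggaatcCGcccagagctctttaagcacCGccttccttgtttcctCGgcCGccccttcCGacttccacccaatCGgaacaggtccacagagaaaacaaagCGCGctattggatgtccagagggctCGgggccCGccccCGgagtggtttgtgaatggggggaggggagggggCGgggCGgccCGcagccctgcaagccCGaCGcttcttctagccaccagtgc
Per 100 bases these stretches held 4.80 CpG for Fzd1, 13.4 for Fzd9, 9.09 for Fzd4, 12.4 for Fzd5 and 6.80 for Fzd7. The 3 genes without a peak thus lay between these 2 with one, and the Fzd10 stretch before the start held 5.33. The stretches are unlike, from 67 bp for Fzd9 to 250 bp for Fzd1 and Fzd7. Those of Fzd1 and Fzd7 end upstream of the GENCODE start, while those of Fzd9, Fzd4 and Fzd5 reach it.

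H3K27me3 was called at 4 of the 10 Frizzled genes with 500 EMPs and at 6 with 15000 EMPs. A gene counted when the authors' table paired it with a peak at a distance of at most 3 kb. With 500 EMPs these were Fzd1, Fzd2, Fzd3 and Fzd10, or 40% (95% Wilson interval 16.8 to 68.7%), against 9.73% of all protein-coding genes. With 15000 EMPs Fzd6 and Fzd9 came on top, giving 60% (31.3 to 83.2%) against 16.7%. All 4 genes of the first library were in the second, as were 98.4% of all genes called with 500 EMPs, and 9.57% of all genes were called in both. Fzd4, Fzd5, Fzd7 and Fzd8 had a peak in neither library. The intervals cover counting error only, and related genes of 1 family are not independent draws, so the shares are given beside the background without a test. With peaks counted within 3 kb of the GENCODE start instead, the same 4 and 6 genes were called, against 9.92% and 17% of all genes. At a limit of 1 kb the same 6 remained with 15000 EMPs, against 15%, while Fzd2 and Fzd10 alone remained with 500 EMPs, against 7.44%, and Fzd10 did so through a peak 972 bp from its 3′ end.

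**Figure D1:**
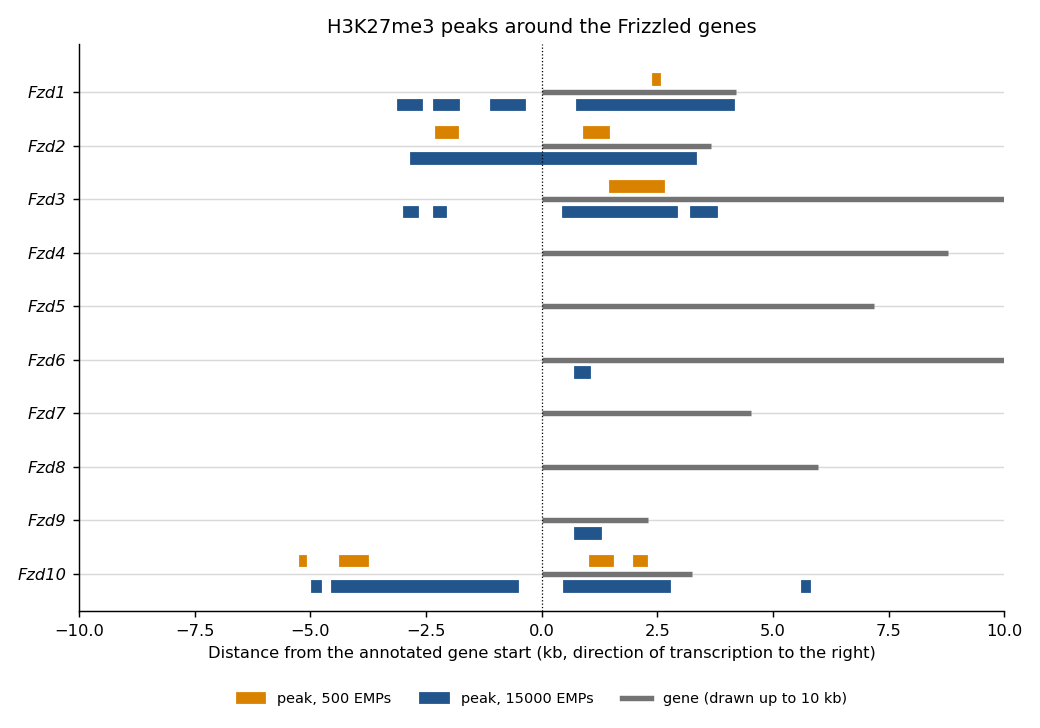
Peaks within 10 kb of the start of each Frizzled gene, with the distance in kb along the direction of transcription on the horizontal axis, 500 EMPs above and 15000 EMPs below the grey gene line, and 1 library each. Fzd2 alone has a peak across its start, Fzd1, Fzd3 and Fzd10 have peaks on both sides of an uncovered start with 15000 EMPs, and the lines of Fzd4, Fzd5, Fzd7 and Fzd8 are empty.

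The calls crossed the sequence groups of the family. Fzd1 and Fzd2 were called in both libraries and their close relative Fzd7 in neither, Fzd3 in both and Fzd6 with 15000 EMPs alone, and Fzd10 in both, Fzd9 with 15000 EMPs alone and Fzd4 in neither. Fzd5 and Fzd8 were the one group without a peak in any member. Gene structure did not separate them either, since 4 of the 6 genes with a single exon were called with 15000 EMPs (Fzd1, Fzd2, Fzd9 and Fzd10, but not Fzd7 and Fzd8) and 2 of the 4 genes with several exons (Fzd3 and Fzd6, but not Fzd4 and Fzd5).

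Fzd2, a receptor for Wnt5a and Wnt3a among others, had the longest covered stretch of the family. The gene is a single exon on chromosome 11 (102604396 to 102608058, plus strand, ENSMUSG00000050288). With 500 EMPs it had a peak of 486 bp, 2293 to 1808 bp before the start, and a peak of 551 bp, 911 to 1461 bp after it, in the coding exon. With 15000 EMPs 1 peak of 6158 bp ran from 2828 bp before to 3329 bp after the start and took in the start and 100% of the coding sequence. The peaks of 500 EMPs lay inside it and covered 16.8% of it. Only 548 peaks of that library were wider. It was the one Frizzled gene whose start lay in a peak, and in the smaller library its start lay in the uncovered stretch between its pair of peaks.

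Fzd10, a Wnt receptor best known from the nervous system and limb of the embryo, had peaks on both sides of its start. It is a single exon on chromosome 5 (128600844 to 128604093, plus strand, ENSMUSG00000081683). With 15000 EMPs a peak of 4020 bp ended 515 bp before the start and a peak of 2301 bp began 475 bp after it, and the second covered 94.2% of the coding sequence. With 500 EMPs 2 peaks of 503 and 274 bp lay inside that second peak and covered 35.5% of the coding sequence. A peak of 604 bp in the smaller library lay within the upstream one, and a peak of 137 bp, the smallest width in its list, was the one Frizzled peak of 500 EMPs without an overlap in the larger library. Peaks of 180 bp each lay 4960 to 4781 bp before and 5619 to 5798 bp after the start with 15000 EMPs alone.

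The upstream peaks of Fzd10 lay in a divergent long noncoding RNA gene, which the authors' tables name Fzd10os and GENCODE names 5930412G12Rik (chromosome 5, 128579106 to 128600693, minus strand). The tables credited both upstream peaks of 500 EMPs to Fzd10os alone, and the 4020 bp peak of 15000 EMPs to both genes. The start of this RNA gene, like that of Fzd10, was in no peak. The 4020 bp peak also held Gm42498 (128596585 to 128597956, minus strand), an unclassified GENCODE gene, and its start. The peaks in the coding sequence of Fzd10 were paired with Fzd10os as well, at 1198 and 2153 bp with 500 EMPs and 625 bp with 15000 EMPs. Which of these genes the chromatin belongs to cannot be told from positions.

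Fzd1, a receptor often linked to beta-catenin signalling, had the least shared length of the 4 genes called in both libraries, with 3.19% of its peak length with 15000 EMPs also in a peak with 500 EMPs. It is a single exon on chromosome 5 (4753839 to 4758035, minus strand, ENSMUSG00000044674). With 500 EMPs it had only 1 peak of 165 bp, 2397 to 2561 bp after the start, in the 3′ UTR. With 15000 EMPs a peak of 3383 bp ran from 765 to 4147 bp after the start and covered 83.9% of the coding sequence, and 3 further peaks of 744, 541 and 511 bp lay between 3097 and 360 bp before the start. The peak of the smaller library covered 4.88% of the one around it, and none touched the 3 upstream peaks. Its call with 500 EMPs also rested on a distance of 1635 bp that the table measures to the 3′ end of the gene.

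Fzd3, a receptor of planar cell polarity that guides axons, carried its peaks in an intron and before the start, with none in the coding sequence. It has 7 exons on chromosome 14 (65192449 to 65262463, minus strand, ENSMUSG00000007989). The peak of 500 EMPs, 1167 bp from 1473 to 2639 bp after the start, was the widest of the family in that library. With 15000 EMPs a peak of 2469 bp lay 454 to 2922 bp after the start and a peak of 580 bp beyond it, and the peak of 500 EMPs covered 47.3% of the first. Peaks of 273 and 286 bp before the start fell between Fzd3 and the neighbouring gene Fbxo16, which lies 4154 bp away and was paired with both. Fbxo16 was called with 15000 EMPs through these 2 peaks, which covered 559 bp around its start, and not called with 500 EMPs.

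Fzd6 and Fzd9 each had 1 short peak, with 15000 EMPs alone. Fzd6, which with Fzd3 orients hair follicles and sensory cells, has 7 exons on chromosome 15 (39006034 to 39038188, plus strand, ENSMUSG00000022297), and its peak of 326 bp lay 729 to 1054 bp after the start in an intron. Fzd9, a receptor expressed in brain and bone-forming cells, is a single exon on chromosome 5 (135248938 to 135251230, minus strand, ENSMUSG00000049551), and its peak of 561 bp lay 727 to 1287 bp after the start and covered 31.6% of the coding sequence. With 500 EMPs the nearest peak to the Fzd6 start was 189308 bp away and to the Fzd9 start 117436 bp. A further peak of 479 bp was paired with Fzd9 from 25413 bp upstream with 15000 EMPs, too far to count here. The Fzd9 neighbour Baz1b, 2808 bp away, had no peak in either library.

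The starts of the 4 members without a peak lay 109893 bp or more from the nearest peak in either library. Distances for other genes without a peak were not computed for comparison. Fzd4 (chromosome 7, 89404355 to 89413134, plus strand, ENSMUSG00000049791), the receptor for Norrin in retinal vessels, was 110200 bp from the nearest peak with 500 EMPs and 110110 bp with 15000 EMPs. Fzd7 (chromosome 1, 59482424 to 59486955, plus strand, ENSMUSG00000041075), a receptor of stem cells in the gut, was 869147 and 109893 bp away. Fzd5 (chromosome 1, 64730558 to 64737751, minus strand, ENSMUSG00000045005), which is needed for the vessels of the yolk sac and placenta, stood farthest off at 1242281 and 573254 bp. Fzd8 (chromosome 18, 9212163 to 9218136, plus strand, ENSMUSG00000036904), the close relative of Fzd5, was 496229 and 496222 bp away. None of the 8 nearest protein-coding neighbours of these 4 genes was called in either library, where 9.73% and 16.7% of all genes were. The peaks nearest to Fzd4 in both libraries did lie inside its neighbour Prss23, and the one nearest to Fzd7 with 15000 EMPs inside Gm973, more than 3 kb from the ends of these genes. Of the 12 neighbours of the other 6 members, 1 was called with 500 EMPs, Tmem132d beside Fzd10, and 5 with 15000 EMPs, Gm11627 and Meioc beside Fzd2, Fbxo16 beside Fzd3, Cthrc1 beside Fzd6 and Tmem132d. Without depth, a region with few reads and a region without the mark cannot be told apart.

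The length covered by peaks from 3 kb before to 3 kb after each gene start, a window of 6001 bp, gave the members an order. With 15000 EMPs Fzd2 had 5829 bp, Fzd10 4787 bp, Fzd1 3935 bp, Fzd3 3028 bp, Fzd9 561 bp and Fzd6 326 bp. With 500 EMPs Fzd3 had 1167 bp, Fzd2 1037 bp, Fzd10 777 bp and Fzd1 165 bp. The orders thus differed: Fzd3 came first of the 4 with 500 EMPs and last of those 4 with 15000 EMPs. With no replicates there is no spread to say which neighbours in these orders differ.

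**Figure D2:**
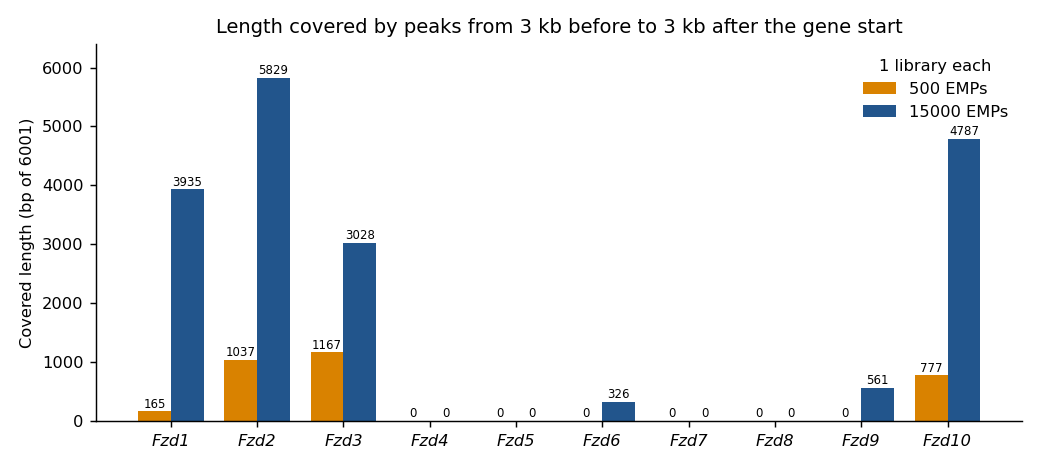
Length covered by peaks within 3 kb on each side of the gene start (bp of 6001, vertical axis) for each Frizzled gene, as bars from 0 for 1 library of 500 EMPs and 1 of 15000 EMPs, with no error bars because there were no replicates. Every gene with a peak has the longer bar with 15000 EMPs, up to 5829 bp for Fzd2.

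Among all genes with any covered length in that window, 2177 with 500 EMPs and 3728 with 15000 EMPs, the members stood at different places. With 15000 EMPs 95.7% of the covered genes had less than Fzd2, 81.7% less than Fzd10, 68.7% less than Fzd1, 54.3% less than Fzd3, 10.9% less than Fzd9 and 5.47% less than Fzd6. With 500 EMPs the shares were 63.1% for Fzd3, 59.1% for Fzd2, 49.3% for Fzd10 and 11.2% for Fzd1. The median over the covered members was 907 bp against 789 bp over all covered genes with 500 EMPs, and 3481.5 against 2743 bp with 15000 EMPs. Fzd1 thus stood near the bottom of the smaller library and above the middle of the larger one.

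**Figure D3:**
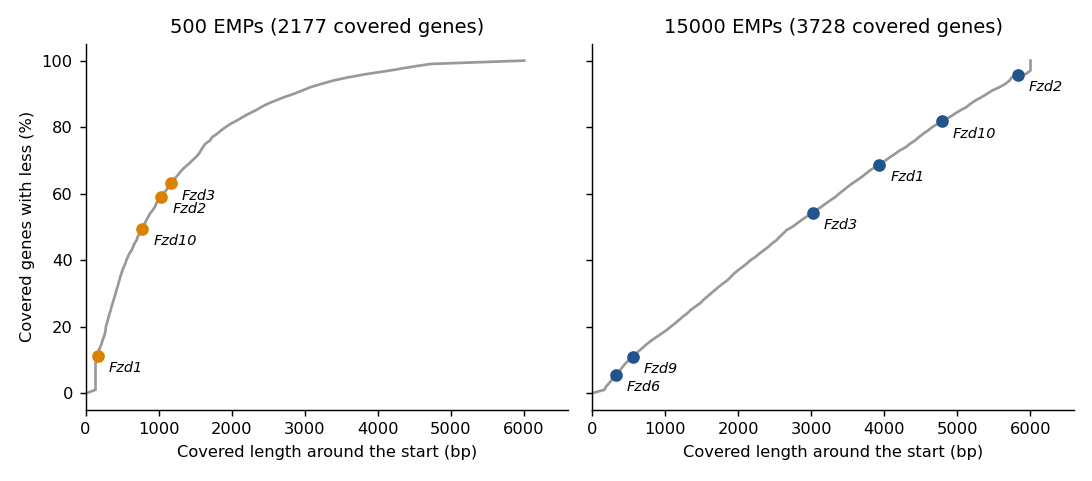
Share of covered genes with a shorter covered length (%, vertical axis) against the length covered around the start (bp, horizontal axis), with all covered protein-coding genes as the grey line and the Frizzled genes as points, 500 EMPs on the left and 15000 EMPs on the right, 1 library each. Fzd2 stands near the top with 15000 EMPs at 95.7%, and Fzd6 and Fzd9 near the bottom at 5.47% and 10.9%.

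Within 3 kb of the start, the covered bases lay mostly after it. With 15000 EMPs 5 of the 6 covered members had more covered length after the start than before it, against 66.0% of all covered genes, and Fzd10 was the exception with 2486 bp before and 2301 bp after. With 500 EMPs all 4 did so, against 58.2%, and only Fzd2 had any covered length in the 3 kb before the start, 486 bp. The start itself lay in a peak for 1 of the 6 members, Fzd2, and for 50.8% of all covered genes. An uncovered start with a peak on both sides within 3 kb was found for Fzd1, Fzd3 and Fzd10, and for 19.6% of all covered genes. With 500 EMPs such a start was found for 1 of the 4 members, Fzd2, and for 36.6% of covered genes. In that library 0 of the 4 members and 14.1% of covered genes had a peak at the start.

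The uncovered stretch at these 3 starts was richer in CpG than the peaks beside it. At Fzd1 it was 1124 bp long, and it held 10.2 CpG per 100 bp against 3.71 in the flanking peaks. At Fzd10 it was 989 bp long, with 9.71 against 3.12 per 100 bp. At Fzd3 it was 2517 bp long, with 5.16 against 2.37 per 100 bp. Its GC content was higher as well, 69.0% against 51.1% at Fzd1, 68.6% against 51.5% at Fzd10 and 53.0% against 45.4% at Fzd3. The Fzd10 stretches shown, with 16 and 14 CpG in 300 bases, differed little, and the other CpG of the 96 in the uncovered stretch lay outside the 300 bases shown. Each uncovered stretch was taken because it holds a gene start, and the same contrast was not computed for the other covered genes with such a start. Whether base composition affected the reads recovered over these starts was not tested.

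The counts of CpG within 500 bases on each side of the start put all Frizzled genes above the median of all genes but did not separate members with a peak from those without. The 6 members with a peak held 65 (Fzd2), 71 (Fzd6), 95 (Fzd1 and Fzd10), 99 (Fzd9) and 127 (Fzd3) CpG, with a median of 95. The 4 without held 50 (Fzd8), 82 (Fzd4), 99 (Fzd5) and 101 (Fzd7), with a median of 90.5, and the ranges overlapped. The median over all protein-coding genes was 41, and over genes with a peak 58 for 500 EMPs and 56 for 15000 EMPs. Fzd3 exceeded 98.5% of all genes, and Fzd8, the lowest of the family, 57.0%.

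**Figure D4:**
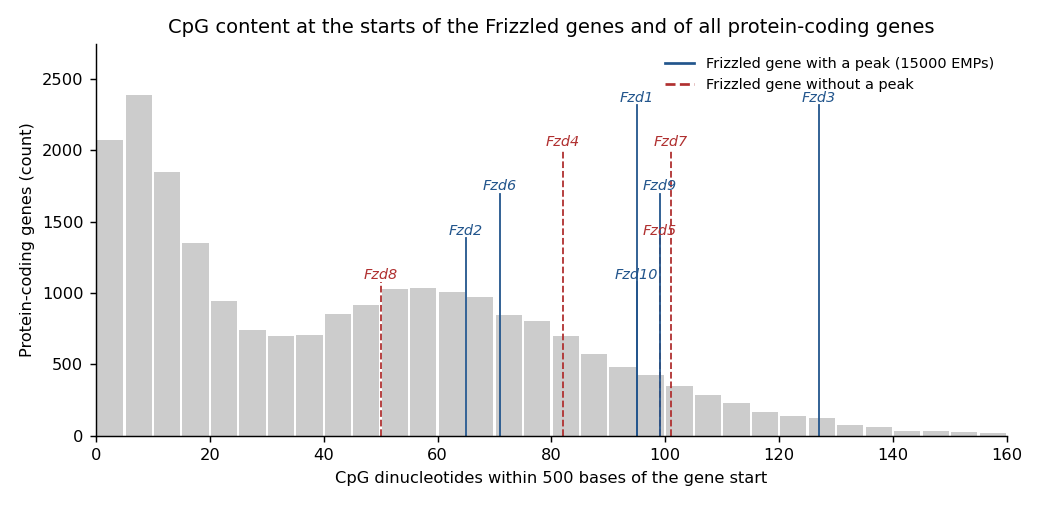
CpG dinucleotides within 500 bases of the gene start (horizontal axis) for all protein-coding genes (grey bars, number of genes on the vertical axis) and for the Frizzled genes as labelled lines of arbitrary height, solid with a peak and dashed without a peak with 15000 EMPs. The dashed lines run from 50 to 101 and the solid ones from 65 to 127, with Fzd8 alone below all solid lines.

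Of the 10 members, 6 were matched in the RefSeq promoter table, which gives 300 bases around a RefSeq start, and Fzd2, Fzd3, Fzd6 and Fzd8 were not. Over the 16522 matched promoters the median was 14 CpG. Fzd9 held 53, Fzd10 45, Fzd5 38, Fzd4 32, Fzd7 24 and Fzd1 16. The motif GGGCGG, a GC box, was counted on both strands and occurred 9 times in Fzd5, 7 times in Fzd4 and 6 times in Fzd7, 1 time each in Fzd9 and Fzd10 and not in Fzd1, while 48.0% of all promoters held it. TATAAA was found in Fzd1 alone of the 6, against 12.9% of all promoters. These matches describe the letters in the window and not a bound factor. The table's starts differ from those of GENCODE, so the motif counts depend on the window as well. The 300 bases shown above from before the GENCODE start of Fzd10 hold GGGCGG more than 1 time. The RefSeq start lies 183 bp inside the GENCODE gene for Fzd9 and 262 bp for Fzd10, and 181 bp upstream of the GENCODE start for Fzd1 and 277 bp for Fzd7, the members with the fewest CpG in this table. Of all promoters there, 53.1% held fewer CpG than Fzd1, against 90.9% of genes in the wider window around the GENCODE start.

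Over the same promoters the called share was lowest at the promoters with fewest CpG. With 15000 EMPs it was 5.44% for promoters with 0 to 4 CpG, 17.8% for 5 to 9, 21.5% for 10 to 19, 18.9% for 20 to 29 and 22.7% for 30 or more. The matched members lie in the 10 to 19 class (Fzd1, with a peak), in the 20 to 29 class (Fzd7, without) and in the class of 30 or more (Fzd9 and Fzd10 with, Fzd4 and Fzd5 without a peak).

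The peaks of the libraries were compared directly by overlap of at least 1 bp. Of the 8 Frizzled peaks of 500 EMPs, 7 overlapped a peak of 15000 EMPs (87.5%, 95% Wilson interval 52.9 to 97.8%), against 91.2% of all peaks of that list. Of the 15 Frizzled peaks of 15000 EMPs, 5 were overlapped (33.3%, 15.2 to 58.3%), against 32.2% of all. In both directions the Frizzled peaks were thus close to the whole list. The 5 recovered peaks were the widest, from 2301 to 6158 bp, and the 10 others measured 180 to 744 bp. A wider peak more readily meets an overlap of 1 bp, and recovery by width was not computed over the whole list. Frizzled peaks of 15000 EMPs covered 22513 bp in all, of which 16.7% also lay in a peak of 500 EMPs, against 23.1% over the whole list. Median widths were 494.5 bp for 500 EMPs, against 363 bp over all peaks, and 561 bp for 15000 EMPs, against 770 bp.

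Genes that act with the Frizzled receptors were compared by the same call. All 19 Wnt ligand genes, whose products bind the Frizzled domain, had a peak in both libraries (100%, 83.2 to 100%). The 8 longest covered with 15000 EMPs were Wnt9b with 6001 bp, Wnt3 with 5805, Wnt3a with 5762, Wnt11 with 5700, Wnt6 with 5661, Wnt1 with 5643, Wnt10a with 5495 and Wnt10b with 5494 bp. For Wnt8a and Wnt8b the peak lay beyond 3 kb of the start. Over the other 17 ligands the median covered length was 5416 bp with 15000 EMPs and 2052 bp with 500 EMPs, and over the covered Frizzled genes 3481.5 and 907 bp.

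Of 8 genes whose products carry a Frizzled-type cysteine-rich domain and are secreted or act as membrane proteins other than signalling receptors, 5 were called with 500 EMPs (62.5%, 30.6 to 86.3%) and 7 with 15000 EMPs (87.5%, 52.9 to 97.8%). Among the secreted Frizzled-related proteins, which bind Wnt outside the cell, Sfrp1 had 1550 and 5511 bp covered with 500 and 15000 EMPs, Sfrp5 2231 and 4935 bp, Frzb 468 and 3516 bp and Sfrp2 515 and 3331 bp. The carboxypeptidase gene Cpz had 1108 and 3246 bp. Sfrp4 and Corin were called with 15000 EMPs alone, and Mfrp in neither. Ror1, Ror2, Musk and Smo carry a related domain too and were counted among the other receptors, where Ror1 and Ror2 were called with 15000 EMPs alone and Musk and Smo in neither library, so these shares depend on that division.

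Of 13 genes that set the amount of Frizzled at the cell surface or bind there, 7 were called with 500 EMPs (53.8%, 29.1 to 76.8%) and 10 with 15000 EMPs (76.9%, 49.7 to 91.8%). Those in both were the R-spondins Rspo1 (1186 and 4625 bp), Rspo2 (331 and 4376 bp) and Rspo4 (406 and 2907 bp), their receptors Lgr5 (316 and 4803 bp) and Lgr6 (274 and 3153 bp), and Shisa3 (1601 and 5354 bp) and Shisa6 (1566 and 5036 bp), of a family known to hold Frizzled back in the cell. Rspo3, Shisa2 and Ndp, which encodes the Fzd4 ligand Norrin, were called with 15000 EMPs alone. Rnf43 and Znrf3, the ubiquitin ligases that remove Frizzled from the membrane, and Lgr4 had no peak in either library.

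Among the other receptors and coreceptors and inside the cell the shares with 500 EMPs were near the 9.73% of all protein-coding genes, and with 15000 EMPs the receptor share was above the 16.7% of all genes. Of 17 other Wnt receptors and coreceptors 2 were called with 500 EMPs (11.8%, 3.29 to 34.3%), the kinase-related receptor gene Ryk with 274 bp and the cadherin gene Celsr3 with 599 bp, and 7 with 15000 EMPs (41.2%, 21.6 to 64.0%), where these measured 1504 and 4284 bp. The 5 further genes were Ror1, Ror2, Lrp4, Celsr1 and Celsr2, and the 10 genes without a peak in either library included Lrp5 and Lrp6. Of 22 intracellular transducers 2 were called with 500 EMPs (9.09%, 2.53 to 27.8%) and 5 with 15000 EMPs (22.7%, 10.1 to 43.4%). Lef1, a nuclear partner of beta-catenin, had 3823 and 6001 bp covered, and Pygo1, a cofactor, 362 and 3584 bp. Tcf7, Tcf7l1 and Tcf7l2 were called with 15000 EMPs alone. In both libraries the Frizzled share lay between those of these lists and those of the ligands and of the secreted and surface genes.

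**Figure D5:**
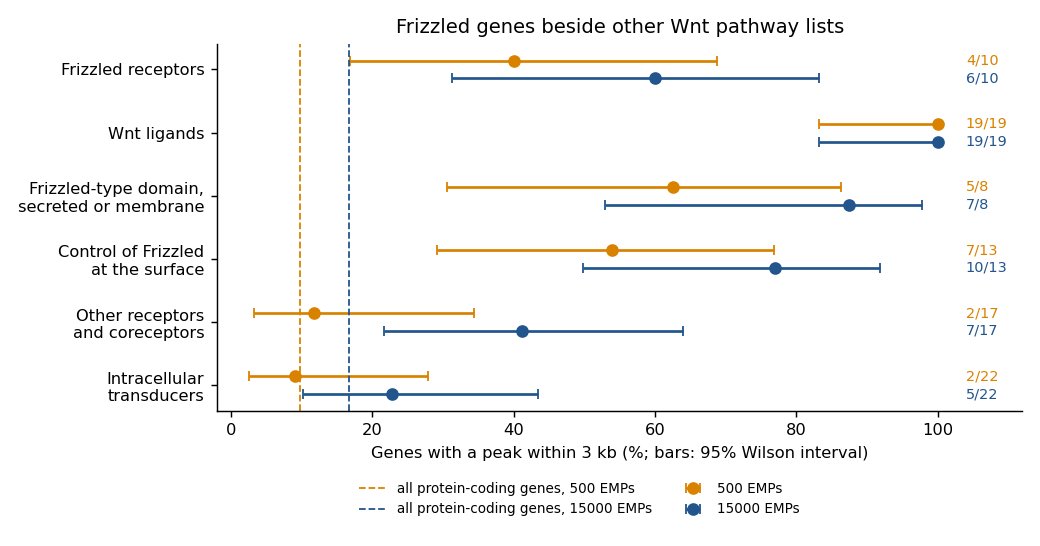
Share of genes with a peak within 3 kb (%, horizontal axis) for the Frizzled genes and 5 other Wnt pathway lists, with counts at the right, bars for 95% Wilson intervals that cover counting error only, and dashed lines for all protein-coding genes, in 1 library each of 500 and 15000 EMPs. The Frizzled points stand at 40% and 60%, the Wnt ligands at 100%.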

How the data were processed

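CUT&RUN libraries came from E10.5 YS EMPs, 76 bp paired reads and 17 PCR cycles for 500 EMPs, 59 bp and 16 cycles for 15000 EMPs. Per the labels, the authors used Bowtie2 2.2.1, SAMtools 1.9, MACS2 2.1.2 and deepTools 3.5.1 on GRCm38 (mm10), and broad peaks were called per library against IgG. The reporting summary's commands name the library of the other cell number, and the labels' naming was kept. It also gives a lower depth and alignment rate for 500 EMPs. The deposited files used here hold peak positions and a ChIPpeakAnno distance to genes, in bp, measured to the nearer gene end inside a gene.

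Genes and starts were taken from GENCODE vM21. A call was a deposited distance of at most 3 kb, and peaks in a gene or within 10 kb were described. Overlap meant at least 1 bp. No test was run, with 1 library per group. Python 3.11.15, pandas 2.3.3, numpy 2.4.6, scipy 1.17.1 and matplotlib 3.10.9 were used, and interval code was tested on simulated data. Coordinates are 1-based. Alternatives were other distances, windows, overlaps, peak widths and joining of peaks. Members and gene lists were chosen with earlier results of these data known. Named were all members, their neighbours where relevant, and per list the genes called in both libraries (above 8, the 8 longest covered) and those without a peak (if 5 or fewer). Other list genes named, those called with 15000 EMPs alone, Lrp5, Lrp6, Musk, Smo, Wnt8a and Wnt8b, were chosen after their values were seen.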

Additional observations from a re-analysis of the deposited data

How the results depend on the processing

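Of 68 alternative values for 26 results, 0 reversed and 18 moved, meaning a count or length by more than 1.5 times or a share out of its Wilson interval, while CpG ranks were read only as above or below the median. Among the other 50, the share of genes with a Frizzled-type cysteine-rich domain went from 62.5% to 37.5% with 500 EMPs at a limit of 1 kb, inside its interval, and the share of promoters with fewer CpG than Fzd1 went from 53.1% to 90.9% with 500 bases on each side of the GENCODE start. At a distance limit of 1 kb, 2 Frizzled genes (Fzd2 and Fzd10) were called with 500 EMPs and 2 in both libraries, and the share of other Wnt receptors and coreceptors with 500 EMPs was 0%. Counting only peaks inside the genes left 5 Frizzled peaks with 500 EMPs and 7 with 15000 EMPs. Peaks joined across gaps of up to 3 kb numbered 5 and 6, and joined across 1 kb 9 with 15000 EMPs. Peaks of at least 500 bp numbered 4 with 500 EMPs, and with these alone Fzd1 was no longer called with 500 EMPs, leaving 3 genes, nor Fzd6 with 15000 EMPs, leaving 5. The share of 500-EMP peaks overlapped was 0% when 50% of both peaks had to be shared, and 100% after joining within 3 kb or with peaks of at least 500 bp. The share of 15000-EMP peaks overlapped was 0% when 50% of the peak or of both had to be shared, and 66.7% after joining within 3 kb. The summed covered length was 3146 bp with 500 EMPs, 90 bp within 1 kb of the starts and 6316 bp after joining within 3 kb, and 18466 bp with 15000 EMPs, 4983 bp within 1 kb. The causes were not tested beyond what each setting itself changes.

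No paired analysis was possible because each group had 1 library, and leaving out a replicate was not possible either. The files used here carry no peak score, so a stricter caller threshold could not be tried. Depth is unknown from the files, so a gene without a peak is not shown to lack the mark, and differences between cell numbers remain tied to depth, threshold and sequencing.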
